A study of Mus musculus with 12 samples.

Results

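The cytosolic heat shock genes described here are 10 genes chosen by name, namely the transcription factor gene *Hsf1*, the chaperone genes *Hsp90aa1*, *Hsp90ab1*, *Hspa8*, *Hspa4* and *Hsph1*, the HSP40 genes *Dnaja1* and *Dnajb1*, the small heat shock protein gene *Hspb1* and the co-chaperone gene *Bag3*. All 10 are among the 14159 listed genes, and all 10 passed the filter on low values that left 13404 genes for testing. Polyadenylated RNA of whole inguinal white adipose tissue (iWAT) was sequenced from 4 groups of 3 mice. Both genotypes carry floxed *Atf4* alleles on a C57BL/6 background. Atf4AKO mice also carry Cre under the *Adipoq* promoter, which deletes *Atf4* in adipocytes, and Atf4WT mice are littermates without Cre. Each genotype was kept at RT or exposed to cold for 24 h. The ages and sexes of these mice are not given in the sources used here. The unit throughout is the normalized count, that is, reads of a gene divided by the size factor of the library.

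HSP70 proteins bind unfolded stretches of client proteins in cycles of ATP hydrolysis. HSP40 proteins deliver clients and start the hydrolysis, and exchange factors such as HSP110 and BAG proteins release the nucleotide and the client. HSP90 dimers act later on kinases, receptors and other clients. HSF1, the main regulator of the heat shock response in mammals, is held inactive by chaperones and upon proteotoxic stress binds heat shock elements, which are inverted repeats of the unit GAA. Some of these genes, such as *Hspa8* and *Hsp90ab1*, are active in nearly all unstressed cells, whereas *Hspa1a* and *Hspa1b* are the classical heat-inducible HSP70 genes. Browning of iWAT in the cold requires the synthesis and import of many mitochondrial proteins.

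Cold exposure raised *Hspa8* about 2.1-fold and *Hspa4* about 1.4-fold in Atf4WT mice and 2.2-fold and 1.5-fold in Atf4AKO mice. *Hsp90aa1* rose 1.3-fold in both genotypes, and *Hsph1* rose 1.8-fold in Atf4WT mice. These calls were less stable, since those of *Hsp90aa1* were lost under 5 (Atf4WT) and 13 (Atf4AKO) of 22 alternatives to the test and that of *Hsph1* under 4. The remaining 6 genes did not pass the test in either genotype. *Hspa1a* and *Hspa1b* did not pass it either. Between the genotypes, no member passed the test at RT or in the cold.

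The libraries held between 25719476 and 29105147 reads on the listed genes. The *Atf4* count lay between 4107 and 7644 in the Atf4WT libraries and between 788 and 1639 in the Atf4AKO libraries, and *Ucp1*, the marker of thermogenic adipocytes, lay at or below 1097 at RT and at or above 73632 in the cold. All 8 white adipocyte markers are listed, with summed counts between 624222 and 1050280 per library. The mean log2 level of 22 B cell and T cell markers (11 of 12 and 11 of 11 listed) was 3.73 to 7.08 in Atf4WT at RT, 3.90 to 5.13 in Atf4AKO at RT, 7.10 to 9.54 in cold-exposed Atf4WT and 3.33 to 4.84 in cold-exposed Atf4AKO mice. The libraries of cold-exposed Atf4WT mice were thus the highest of all on this lymphocyte score. Fits with the score as a covariate therefore cannot fully tell the score from this group. The summed count of 6 listed muscle markers out of 10 was 94204 in Atf4WT RT replicate 2, 32680 in Atf4WT cold replicate 0 and 86.1 to 3469 in the other libraries. Atf4WT RT replicate 2 thus stood apart from its group on both lists, and without it 3 in place of 4 members were called in the cold in Atf4WT mice (*Hspa8*, *Hspa4* and *Hsph1*). Without Atf4WT cold replicate 0 the same 3 were called. In RNA of whole tissue, fewer cells of a type and less RNA per cell cannot be told apart.

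The start regions of the genes were read from RefSeq promoter windows (GRCm38.p6, which is mm10), which span 250 bases before and 50 bases from each annotated start. Of the 10 members, *Hspa4*, *Hsph1*, *Dnaja1*, *Dnajb1*, *Hspb1* and *Bag3* matched, as did *Hspa1a* and *Hspa1b*. *Hsf1*, *Hsp90aa1*, *Hsp90ab1* and *Hspa8* had no entry. The letters searched for were 2 adjoining units, GAANNTTC or TTCNNGAA, and 3 adjoining units, GAANNTTCNNGAA or TTCNNGAANNTTC. Each 3-unit match also holds both 2-unit forms. Each 2-unit form reads the same on both strands, and the 3-unit forms are each other's reverse complement. The sequences below are shown because they set a gene that rose in the cold and carries the letters (*Hsph1*) beside one that rose without them (*Hspa4*), one that carries them and did not pass the test (*Hspb1*), and the heat-inducible *Hspa1a*. Capitals mark the GAA and TTC units that belong to a match, and single units outside a match stay in lower case. Positions are counted from the start as 1 with no 0, and each sequence reads 5′ to 3′ on the strand of the gene.
*Hsph1*, chr5:149636352-149636381, minus strand, positions -45 to -16: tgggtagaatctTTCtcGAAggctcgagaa
*Hsph1*, chr5:149636287-149636304, minus strand, positions 33 to 50: cagaTTCtgGAAagTTCt
*Hspa4*, chr11:53300480-53300539, minus strand, positions -60 to -1: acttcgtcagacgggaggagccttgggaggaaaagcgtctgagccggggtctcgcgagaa
*Hspb1*, chr5:135887789-135887848, plus strand, positions -130 to -71: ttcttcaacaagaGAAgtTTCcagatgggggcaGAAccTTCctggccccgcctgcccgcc
*Hspa1a*, chr17:34972217-34972276, minus strand, positions -120 to -61: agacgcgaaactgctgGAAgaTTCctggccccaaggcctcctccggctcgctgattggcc

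*Hsph1* was the only one of these 8 genes with a 3-unit match, which starts 37 bases into the transcript counted from one of its 2 RefSeq starts. Its 2-unit match at -33 from the same start lies inside the first exon of the longer GENCODE model. *Hspb1* holds 2-unit matches at -117 and -97, *Hspa1a* and *Hspa1b* each hold one at -104, *Dnaja1* holds one at -124 of 1 of its 3 starts, and *Bag3* holds one at 43. *Hspa4* and *Dnajb1* held neither form in these windows. Of all 32851 windows, 15.1% hold a 2-unit form and 0.603% a 3-unit form, so the 2-unit letters are common in promoters at large. A match describes the letters and no site of binding, and genes with and without a match were found both among those that rose and among those that did not pass the test.

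**Figure D1:**
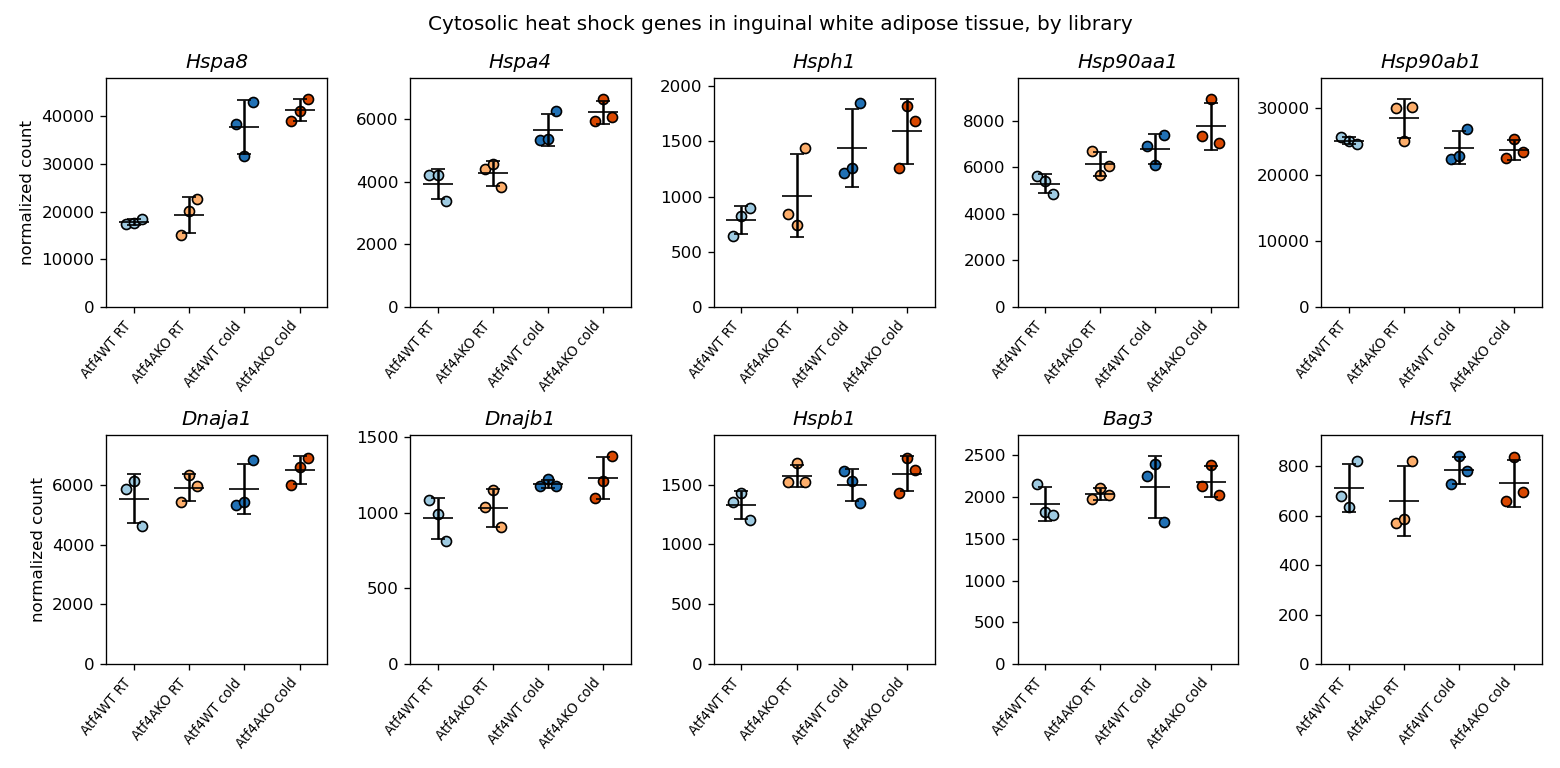
Normalized counts (y axes from 0) of the 10 genes in the 12 libraries; points are libraries, horizontal lines are means and bars are SD (n = 3 per group). The cold-exposed libraries of *Hspa8*, *Hspa4* and *Hsp90aa1* lie above the RT libraries of the same genotype, whereas those of *Hsp90ab1*, *Dnaja1*, *Bag3* and *Hsf1* overlap them.

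Levels of different genes were compared per kb of merged exons in the GENCODE annotation of mm10. Merged exons join all annotated transcripts of a gene, so the order also depends on the annotation. Over the 12 libraries, *Hsp90ab1* was highest with 8451 normalized counts per kb, followed by *Hspa8* with 6753. *Hsp90aa1* followed at 1654, *Hspb1* at 1453, *Hspa4* at 907, *Bag3* at 805 and *Dnaja1* at 691 per kb. *Dnajb1* (344 per kb), *Hsph1* (166 per kb) and *Hsf1* (102 per kb) were lowest. The ranges over libraries of neighbours in this order overlapped, except between *Hspa8* and *Hsp90aa1*, between *Dnaja1* and *Dnajb1*, and between *Dnajb1* and *Hsph1*. The ranges of *Dnajb1* and *Hsph1* nearly touched, since the lowest library of the former was at 254.4 per kb and the highest of the latter at 253.9 per kb. At RT in Atf4WT mice *Hspa8* stood at 4154 ± 134 per kb (SD, n = 3) and *Hsp90ab1* at 8363 ± 177 per kb. After cold exposure *Hspa8* reached 8774 ± 1313 per kb beside 8023 ± 831 per kb of *Hsp90ab1*. On this scale the constitutive HSP70 gene came up to the level of the constitutive HSP90 gene. That likeness is uncertain, since it depends on the exon lengths used (4301 and 2999 bases) and on uniquely mapped reads.

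The HSP70 and HSP110 members were the most responsive to cold. *Hspa8* (NM_031165, chromosome 9, 40800984 to 40810087, plus strand) encodes HSC70, the constitutive HSP70 of the cytosol. Its normalized counts in Atf4WT mice were 17404, 17679 and 18510 at RT and 38454, 31769 and 42994 after cold exposure. In Atf4AKO mice they were 15156, 20075 and 22695 at RT and 39037, 41167 and 43581 in the cold. Every cold-exposed library was therefore above every RT library, also across genotypes. The means in Atf4WT mice were 17864 ± 576 at RT and 37739 ± 5646 (SD, n = 3) in the cold, which limma gave as a rise of 1.07 ± 0.15 (SE) on the log2 scale (adjusted p = 0.000681). The means in Atf4AKO mice were 19309 ± 3827 and 41262 ± 2273, a rise of 1.11 ± 0.15 (limma, adjusted p = 0.000626). The response in Atf4AKO minus that in Atf4WT mice was 0.05 on the log2 scale, with a 95% confidence interval from -0.43 to 0.52. Over the 22 alternatives to the test that were run, the log2 fold change of *Hspa8* stayed between 0.97 and 1.19 in Atf4WT and between 0.95 and 1.24 in Atf4AKO mice, each with an adjusted p of at most 0.0177.

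*Hspa4* (NM_008300, chromosome 11, 53259814 to 53300457, minus strand) encodes an HSP110 protein, a nucleotide exchange factor for HSP70. The counts in Atf4WT mice were 4218, 4200 and 3370 at RT and 5339, 5357 and 6253 in the cold. The counts in Atf4AKO mice were 4401, 4569 and 3816 at RT and 5922, 6631 and 6069 in the cold. No cold-exposed library overlapped an RT library in either genotype. On the log2 scale the gene rose by 0.53 ± 0.11 (SE) in Atf4WT and by 0.54 ± 0.11 in Atf4AKO mice (limma, adjusted p = 0.00479 and 0.00489). In each genotype it passed the test under all 22 alternatives to it, with a fold (1.44 and 1.46) short of the 1.5 that the study asked of a differentially expressed gene.

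*Hsph1* (NM_001347534, chromosome 5, 149614287 to 149636376, minus strand) encodes HSP105, another HSP110 protein and a classical HSF1 target. Its counts in Atf4WT mice were 642, 828 and 895 at RT and 1218, 1256 and 1845 in the cold. In Atf4AKO mice the counts were 846, 745 and 1437 at RT and 1263, 1822 and 1687 in the cold. Here the groups overlapped because replicate 2 of Atf4AKO at RT, at 1437, was above 1 of the 3 cold-exposed libraries. *Hsph1* had the widest spread of the 10 genes, with a coefficient of variation between 16.6% and 37.1% within groups.

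*Hsph1* rose by 0.86 ± 0.25 (SE) on the log2 scale in Atf4WT mice (limma, adjusted p = 0.0243), and its log2 difference in Atf4AKO mice was 0.70 (adjusted p = 0.0625). The difference between these responses was -0.16 on the log2 scale (95% confidence interval -0.94 to 0.63), so a different response of the genotypes was not shown. The call in Atf4WT mice was lost without Atf4WT RT replicate 0 (adjusted p = 0.0903 from limma), Atf4WT RT replicate 1 (0.0527) or Atf4WT cold replicate 2 (0.0906). In Atf4AKO mice a call was gained without Atf4AKO RT replicate 2 (log2 difference 0.98, adjusted p = 0.0114 from limma), without Atf4AKO cold replicate 0 (adjusted p = 0.0465), with the replicate block (adjusted p = 0.0131) and with DESeq2 on the recovered reads (adjusted p = 0.0445). Once the lymphocyte score was a covariate, the log2 difference in Atf4WT mice was 0.54 (adjusted p = 0.411). The part of the lymphocyte markers in the result was not tested further.

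The HSP90 genes behaved unlike each other. *Hsp90aa1* (NM_010480, chromosome 12, 110690605 to 110702728, minus strand) encodes the stress-inducible HSP90 of the cytosol. In Atf4WT mice its counts were 5629, 5425 and 4834 at RT and 6915, 6098 and 7377 in the cold. In Atf4AKO mice they were 6687, 5680 and 6076 at RT and 7332, 8921 and 7031 in the cold. The cold-exposed and RT libraries of a genotype did not overlap. *Hsp90aa1* rose by 0.36 ± 0.11 (SE) on the log2 scale in Atf4WT (limma, adjusted p = 0.0312) and by 0.33 ± 0.11 in Atf4AKO mice (adjusted p = 0.0497), the latter just inside the threshold.

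These calls depended on single libraries. In Atf4WT mice the call of *Hsp90aa1* was lost without Atf4WT RT replicate 1 or 2 or Atf4WT cold replicate 0 or 2 (adjusted p = 0.0644, 0.101, 0.0749 and 0.103 from limma), and with the lymphocyte score as a covariate (0.101). In Atf4AKO mice it was lost without any of the 3 Atf4AKO RT libraries, Atf4AKO cold replicate 0 or 1, Atf4WT RT replicate 0 or 1, or Atf4WT cold replicate 0, with adjusted p between 0.0563 and 0.184 from limma. It was also lost with the replicate block (adjusted p = 0.0558), without the filter on low values (0.0513), after rescaling (0.0794), within the 2 groups alone (0.0902) and with the lymphocyte score (0.0696). The direction was the same in all of these.

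*Hsp90ab1* (NM_008302, chromosome 17, 45567775 to 45573271, minus strand) encodes the constitutive HSP90 of the cytosol. Its counts were 25612, 25081 and 24552 in Atf4WT at RT and 22413, 22841 and 26928 in cold-exposed Atf4WT mice. They were 30130, 25138 and 30191 in Atf4AKO at RT and 22516, 25370 and 23345 in cold-exposed Atf4AKO mice. The groups overlapped in both genotypes. The log2 differences between cold and RT were -0.06 (adjusted p = 0.681) in Atf4WT and -0.26 (adjusted p = 0.103) in Atf4AKO mice, both from limma. The latter passed the threshold in DESeq2's test on the recovered reads (adjusted p = 0.0367) and after rescaling to a common 75th percentile (0.0494).

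Summed over both cytosolic HSP90 genes, the count was 30378 ± 934 (SD, n = 3) in Atf4WT at RT, 34634 ± 3316 in Atf4AKO at RT, 30857 ± 2992 in cold-exposed Atf4WT and 31505 ± 2427 in cold-exposed Atf4AKO mice. The ranges of the sum overlapped between cold and RT in each genotype. Per kb, *Hsp90aa1* made up 13.9% ± 0.7 and 14.2% ± 0.75 of this sum at RT in Atf4WT and Atf4AKO mice and 17.8% ± 1.1 and 19.9% ± 1.2 in the cold. The study used HSP90 protein to normalize immunoblots of iWAT, and protein was not measured in these libraries.

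Neither HSP40 member passed the test. *Dnaja1* (NM_008298, chromosome 4, 40722150 to 40737149, plus strand), a J-domain partner of HSC70, had 4622 to 6146 counts in Atf4WT at RT and 5344 to 6832 in the cold. In Atf4AKO mice it had 5443 to 6344 and 5998 to 6919. Its log2 differences were 0.08 and 0.14 (adjusted p = 0.656 and 0.452 from limma). *Dnajb1* (NM_018808, chromosome 8, 83608193 to 83612653, plus strand) encodes HSP40 proper, which is strongly heat-inducible. Its counts in Atf4WT mice were 1082, 987 and 815 at RT and 1175, 1221 and 1174 in the cold, without overlap. In Atf4AKO mice they were 1036, 1149 and 902 at RT and 1099, 1209 and 1372 in the cold, and the groups overlapped. The log2 differences of *Dnajb1* were 0.32 (95% confidence interval 0.04 to 0.59, adjusted p = 0.0732 from limma) and 0.25 (-0.02 to 0.53, adjusted p = 0.155). With the lymphocyte score as a covariate, the difference in Atf4WT mice was 0.61 (adjusted p = 0.0381 from limma). That fit cannot fully tell the score from the cold-exposed Atf4WT group.

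*Hspb1* (NM_013560, chromosome 5, 135887919 to 135889563, plus strand) encodes HSP25, a small heat shock protein that holds unfolded clients without ATP. In Atf4WT mice its counts were 1351, 1430 and 1205 at RT and 1614, 1530 and 1349 in the cold. In Atf4AKO mice they were 1523, 1679 and 1520 at RT and 1432, 1721 and 1619 in the cold. The groups overlapped in both genotypes, with log2 differences of 0.17 and 0.01 (adjusted p = 0.211 and 0.937 from limma). With the lymphocyte score as a covariate, the difference in Atf4WT mice was 0.48 (adjusted p = 0.0166 from limma), under the same limit as for *Dnajb1*.

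*Bag3* (NM_013863, chromosome 7, 128523616 to 128546981, plus strand) encodes an exchange factor for HSP70 that also binds small heat shock proteins. It ranged from 1787 to 2153 and from 1701 to 2399 counts at RT and in the cold in Atf4WT mice, and from 1974 to 2107 and from 2026 to 2385 in Atf4AKO mice. *Hsf1* (NM_008296, chromosome 15, 76477422 to 76501913, plus strand) ranged from 634 to 822 and from 728 to 840 counts in Atf4WT, and from 570 to 822 and from 658 to 837 in Atf4AKO mice. Cold and RT libraries of both genes overlapped. The log2 differences of *Bag3* were 0.13 and 0.10 and those of *Hsf1* were 0.14 and 0.16, with adjusted p of at least 0.447 from limma. HSF1 is controlled mainly at the protein level, which RNA counts do not measure.

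The heat-inducible *Hspa1a* and *Hspa1b* were low in all groups. *Hspa1a* counted 42.3, 54.9 and 53.8 in Atf4WT at RT, 66.8, 30.6 and 63.1 in cold-exposed Atf4WT, 53.9, 42.8 and 59.4 in Atf4AKO at RT and 59.5, 24.9 and 68.8 in cold-exposed Atf4AKO mice. *Hspa1b* lay between 53.3 and 118 in all 12 libraries. Neither gene separated cold from RT, and the log2 differences were 0.02 and -0.14 for *Hspa1a* and 0.08 and -0.31 for *Hspa1b* (adjusted p of at least 0.467 from limma). The 95% confidence intervals were wide, from -1.002 to 0.88 over both genotypes for *Hspa1a* and from -0.96 to 0.73 for *Hspa1b*. Both genes are nearly identical, and *Hspa8* and *Hsp90ab1* have processed copies elsewhere in the genome. The counting used uniquely mapped reads, so the levels of these 4 genes are uncertain.

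In Atf4WT mice 4 of the 10 members were called higher in the cold at an adjusted p under 0.05 and none lower, beside 17% of all tested genes called higher and 14.9% lower. In Atf4AKO mice 3 members were called higher and none lower, beside 14.8% and 11% of all tested genes. The median log2 difference of the members was 0.24 in Atf4WT and 0.21 in Atf4AKO mice, against medians of 0.00 and -0.03 over all tested genes. In Atf4WT mice 5 members had cold-exposed libraries entirely above the RT libraries (23.9% of all tested genes did), and in Atf4AKO mice 3 did (21.7%). With the DEG threshold of the study, that is, over 1.5-fold and p under 0.05 without adjustment, 2 members passed in each genotype, namely *Hspa8* and *Hsph1*. This threshold was passed in either direction by 21.2% and 17.2% of all tested genes. With so many genes called in the cold, the share of the members called is a description of these 10 genes.

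**Figure D2:**
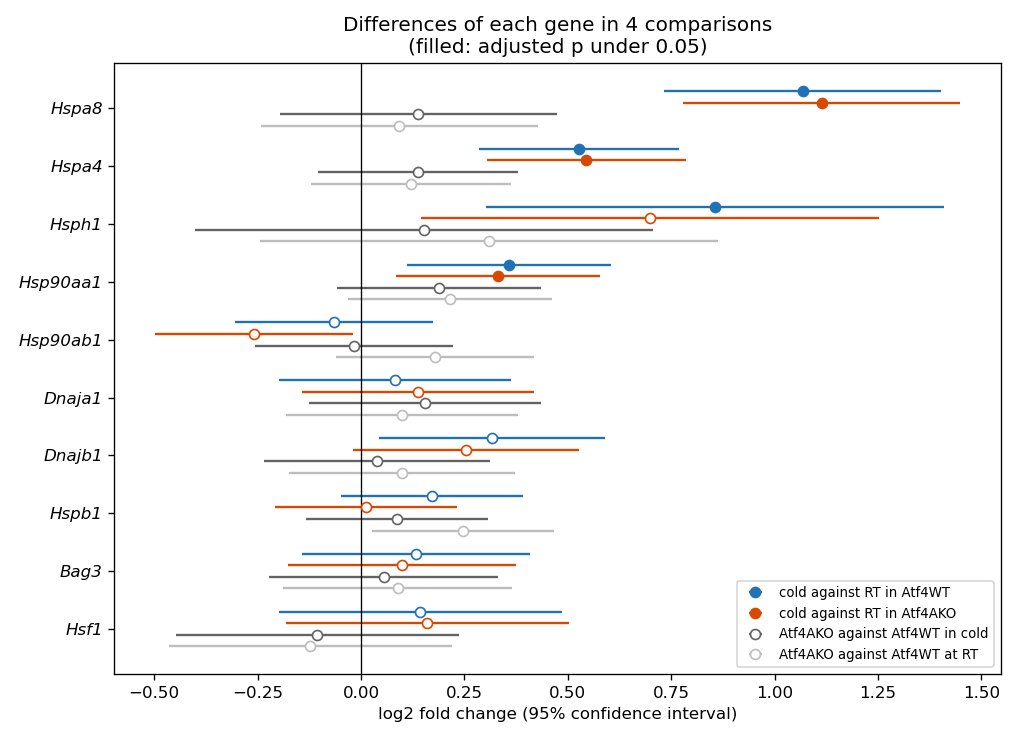
Log2 fold change (x axis) of each gene in 4 comparisons, with 95% confidence intervals from limma; filled points have an adjusted p under 0.05. The 7 filled points are cold responses of *Hspa8*, *Hspa4*, *Hsph1* and *Hsp90aa1*, and the intervals of all genotype comparisons in the cold include 0.

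Whether ATF4 in adipocytes bears on these genes was compared at both temperatures. In the cold, no member was called between Atf4AKO and Atf4WT mice, and 0.0298% of all tested genes were. By limma, the 4 genes behind this share were *Atf4* itself, *Rps19bp1*, *Atf5* and *Dnase1l3*, named here after their values were seen. The log2 differences of the members lay between -0.11 (*Hsf1*) and 0.19 (*Hsp90aa1*), no member had an unadjusted p under 0.05, and the smallest adjusted p was 0.563. The 95% confidence intervals reached from a fold of 0.733 to a fold of 1.63, the latter for *Hsph1*. With the lymphocyte score as a covariate the log2 differences ran from -0.34 (*Dnajb1*) to 0.56 (*Hsph1*), with adjusted p of 0.999 from limma. No member had Atf4AKO libraries entirely above the Atf4WT libraries, as 8.68% of all tested genes had. The DEG threshold was passed by no member and by 6.4% of all tested genes.

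At RT no member was called either, and 0.00746% of all tested genes were, namely *Rps19bp1* alone. The deleted gene *Atf4* was thus itself not called at RT, although its counts did not overlap between the genotypes. The adjusted test at RT can therefore miss a real difference. The member differences lay between -0.12 (*Hsf1*) and 0.31 (*Hsph1*) on the log2 scale, each with an adjusted p of 0.9999 from limma. *Hspb1* was the 1 member with an unadjusted p under 0.05. Its 3 Atf4AKO libraries (1520 to 1679 counts) were above the 3 Atf4WT libraries (1205 to 1430 counts), with a log2 difference of 0.25 (95% confidence interval 0.03 to 0.47). *Hsp90aa1* also did not overlap at RT, with 5680 to 6687 counts in Atf4AKO and 4834 to 5629 counts in Atf4WT mice (log2 difference 0.21). Such a higher, non-overlapping pair of groups was found for 3.32% of all tested genes. No member passed the DEG threshold at RT, which 0.463% of all tested genes passed.

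The interaction, the cold response in Atf4AKO minus that in Atf4WT mice, was called for no member and for 0% of all tested genes by limma, and 928 of the latter had an unadjusted p under 0.05. It lay between -0.19 (*Hsp90ab1*) and 0.06 (*Dnaja1*) for the members, with an adjusted p of at least 0.989 from limma. No member and 4.63% of all tested genes passed the DEG threshold in the interaction. DESeq2 and edgeR on the recovered reads also called no member between the genotypes or in the interaction.

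The members were next set beside 56 listed genes of the wider cytosolic chaperone system, from a list of 61. In Atf4WT mice 19 of these rose and 5 fell in the cold, beside 17% and 14.9% of all tested genes. In Atf4AKO mice 17 rose and 3 fell, beside 14.8% and 11% of all tested genes. The same shares stand beside the counts of each list below, and no list was tested against them. The median log2 differences of the 56 genes were 0.11 and 0.11. The counts moved with the libraries. The 20 calls in Atf4AKO mice fell to between 9 and 12 without any of the 3 Atf4AKO RT libraries or without Atf4AKO cold replicate 1 or 2, and to 13 when only the libraries of these groups were fitted, and the 24 calls in Atf4WT mice were 13 with the lymphocyte score as a covariate. No gene of these lists was called between the genotypes or in the interaction. The plot of cold differences by list shows each of them.

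**Figure D3:**
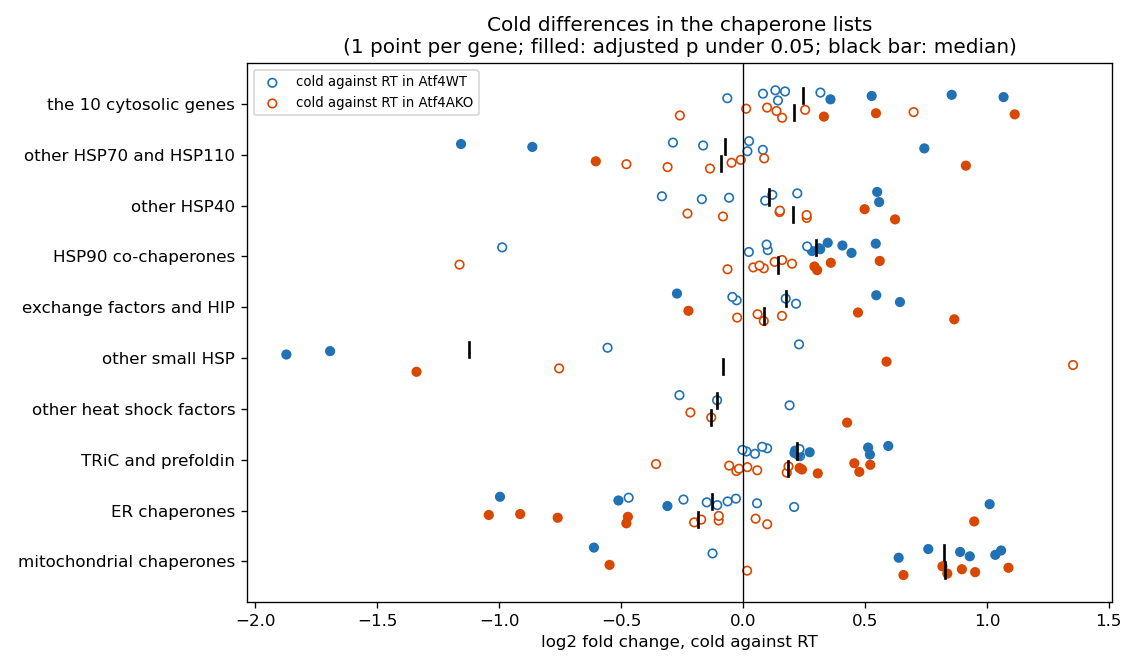
Log2 fold change of cold against RT (x axis) for each gene of the cytosolic, endoplasmic reticulum (ER) and mitochondrial chaperone lists, in Atf4WT and Atf4AKO mice; filled points have an adjusted p under 0.05 and black bars are medians. The mitochondrial chaperones have medians of 0.82 and 0.83, the 10 cytosolic genes of 0.24 and 0.21, and the ER chaperones of -0.13 and -0.19.

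Of 12 listed HSP90 co-chaperone genes, 7 were called higher in Atf4WT and 4 in Atf4AKO mice, and none was called lower. The lowest log2 differences of this list, -0.988 in Atf4WT and -1.16 in Atf4AKO mice, were not called. They were larger in size than the highest, 0.544 and 0.561. *Ahsa1*, the activator of the HSP90 ATPase and one of the 3 genes closest to *Hsp90aa1* across libraries, rose from 2458 to 3333 counts in Atf4WT (log2 fold change 0.44) and from 2803 to 3468 in Atf4AKO mice (0.30). *Chordc1*, an HSP90-binding protein gene, rose with log2 fold changes of 0.54 and 0.56. *Ppp5c* (0.41 and 0.36) and *Ptges3*, which encodes p23 (0.32 and 0.29), also rose in both genotypes. *Unc45a*, a myosin chaperone gene, rose in Atf4WT mice (0.35), beside a log2 difference of 0.16 in Atf4AKO mice (adjusted p = 0.148 from limma). Among 7 exchange factors and HIP, the HSP70 exchange factor genes *Hspbp1* (0.55 and 0.47) and *Bag2* (0.64 and 0.87) rose in Atf4WT and Atf4AKO mice. *St13*, which encodes HIP, fell by 0.27 and 0.22 on the log2 scale.

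Of 8 further HSP40 genes, *Dnaja2* (log2 fold changes 0.56 and 0.62) and *Dnajc7* (0.55 and 0.50) rose in both genotypes and none fell. *Dnaja2* is a close relative of *Dnaja1*, which did not pass the test. Of 14 TRiC and prefoldin genes, which fold actin and tubulin, 7 rose in Atf4WT and 6 in Atf4AKO mice and none fell. *Cct3* (0.52 and 0.48), *Pfdn6* (0.60 and 0.46) and *Pfdn4* (0.51 and 0.52) led this list in both genotypes.

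Of 8 further HSP70 and HSP110 genes, *Hspa1l* rose from 73.1 to 120 counts in Atf4WT and from 78.0 to 147 counts in Atf4AKO mice. *Hspa12a*, a distant HSP70 relative, fell by 1.16 and 0.60 on the log2 scale, and *Hspa2* fell by 0.86 in Atf4WT mice, beside a difference of -0.48 in Atf4AKO mice. Among 4 listed small heat shock genes out of 7, *Cryab* fell by 1.87 and 1.34, and *Hspb2* fell by 1.69 in Atf4WT mice (-0.75 in Atf4AKO, not called). *Hspb8* rose by 0.59 in Atf4AKO mice (0.23 in Atf4WT, not called). The remaining gene passed the test in neither genotype, with the highest log2 difference of this list in Atf4AKO mice (1.35). Its interaction value (1.91) was also the highest of the list and was not called. *Cryab* and *Hspb2* are strongly expressed in muscle. Without the library with the most muscle marker counts, Atf4WT RT replicate 2, they were lower in the cold by -1.88 and -1.63 on the log2 scale in Atf4WT mice. Of the 3 other listed genes of heat shock factors and their binding protein, *Hsf2* rose in Atf4AKO mice (0.43, adjusted p = 0.0402 from limma), and none passed the test in Atf4WT mice, where *Hsf2* differed by 0.19 and *Hsbp1* had the smallest p (log2 difference -0.26, adjusted p = 0.0817).

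Chaperones of the mitochondria and the ER were counted in the same way, without a test between the lists. Of 8 mitochondrial chaperone genes, 6 rose and 1 fell in each genotype. *Grpel1* (log2 fold changes 1.06 and 1.09) and *Grpel2* (0.76 and 0.82), the exchange factors of mitochondrial HSP70, and the J-domain gene *Dnaja3* (0.89 and 0.90) had the smallest p. The mitochondrial HSP70 gene *Hspa9* rose by 1.03 and 0.95, and the iron-sulfur cluster J-domain gene *Hscb* fell by 0.61 and 0.55. Of 12 ER chaperone genes, 1 rose and 3 fell in Atf4WT mice, and 1 rose and 5 fell in Atf4AKO mice. Of all tested genes, 17% rose and 14.9% fell in Atf4WT mice, and 14.8% rose and 11% fell in Atf4AKO mice. *Dnajb9*, an ER J-domain gene, rose by 1.01 and 0.95, and *Serpinh1*, the collagen chaperone gene (-0.997 and -0.91), *Pdia4* (-0.51 and -0.76) and *Hsp90b1* (-0.31 and -0.48) fell. The fibroblast markers were lower in the cold as well, with a median log2 difference over all 4 of -1.06 in Atf4WT and -1.13 in Atf4AKO mice, and 1 and 2 of them called. Their summed counts were 42617 to 52138 and 42404 to 62675 at RT in Atf4WT and Atf4AKO mice, and 12563 to 32526 and 9835 to 32030 in the cold. The median was -0.62 and -1.03 for 6 listed macrophage markers out of 7, none of them called, and -0.34 and -0.16 for 6 endothelial markers, with 3 and 1 called. The macrophage sums were 21625 to 39298 at RT and 4314 to 31923 in the cold, and the endothelial sums 20681 to 24780 and 18573 to 23802. The part of these cells in the fall of the ER chaperone genes was not tested.

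Between the genotypes the genes with the smallest p of each list gave the following values, with adjusted p of at least 0.224 from limma. In the cold the log2 differences were 0.41 for *Hspa12a*, -0.24 for *Dnajb5*, 0.14 for *Ptges3*, 0.15 for *St13*, 0.48 for *Hspb8*, 0.21 for *Hsf2*, 0.13 for *Cct8*, 0.13 for *Dnajc3* and 0.20 for *Trap1*. At RT they were 0.41 for *Hspa1b*, -0.34 for *Dnajb5*, 0.24 for *Stip1*, 0.10 for *St13*, -0.54 for *Hspb2*, 0.10 for *Hsf4*, 0.15 for *Cct6a*, 0.21 for *Dnajb11* and 0.20 for *Hspe1*. The interaction values were 0.55 for *Hspa12a*, 0.32 for *Dnajb4*, -0.19 for *Unc45a*, 0.10 for *Bag6*, 0.94 for *Hspb2*, 0.24 for *Hsf2*, -0.44 for *Pfdn5*, -0.16 for *Dnajb11* and 0.14 for *Trap1*. None of these genes passed the test.

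Members were compared directly with their relatives by the ratio of normalized counts within a library, which does not depend on library scaling. The 10 pairs were fixed by family with the values of the single genes known. Cold and RT libraries were exchanged within genotype in a two-sided exact permutation test over 400 arrangements, whose smallest p is 0.005, and p was adjusted over the 10 pairs. Against *Hspa5*, which encodes the ER HSP70 BiP, *Hspa8* had a ratio of 1.62 ± 0.07 (SD, n = 3) and 1.52 ± 0.17 at RT in Atf4WT and Atf4AKO mice. The ratio was 2.96 ± 0.40 and 3.07 ± 0.20 in the cold. This was 1.91-fold higher in the cold (exact p = 0.005, adjusted p = 0.01). Against *Hspa9*, which encodes mitochondrial HSP70, the ratio was 1.02 ± 0.25 and 0.99 ± 0.26 at RT and 1.03 ± 0.11 and 1.09 ± 0.10 in the cold (exact p = 0.54). *Hspa8* and *Hspa9* thus both about doubled, and no change of their ratio was detected with 3 libraries per group.

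*Hsp90aa1* had higher ratios to both organelle HSP90 genes in the cold. Its ratio to *Hsp90b1*, the ER form, was 1.67-fold higher in the cold (exact p = 0.005, adjusted p = 0.01), and its ratio to *Trap1*, the mitochondrial form, was 1.32-fold higher (exact p = 0.01, adjusted p = 0.0143). Its ratio to *Hsp90ab1* was 0.211 ± 0.012 and 0.216 ± 0.013 at RT and 0.283 ± 0.022 and 0.326 ± 0.025 in the cold, or 1.42-fold higher (exact p = 0.005, adjusted p = 0.01). The ratios of the 2 cytosolic HSP90 genes at RT and in the cold did not overlap. This pair was chosen with the counts of both genes known, so its p is no independent check of that difference. The ratio of *Hsp90ab1* to *Hsp90b1* was 1.17-fold higher in the cold (exact p = 0.01, adjusted p = 0.0143), and that to *Trap1* had a fold of 0.928 (exact p = 0.32). *Hsp90b1* itself fell in the cold in both genotypes, whereas *Hsp90ab1* passed the test in neither. Ratios to *Hsp90b1* therefore hold its fall as well as any change of the cytosolic gene.

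Among HSP110 genes, the ratios of *Hspa4* and *Hsph1* to *Hyou1*, the HSP110 of the ER, were 1.61-fold and 1.91-fold higher in the cold (exact p = 0.005 and adjusted p = 0.01 for each). The ratio of *Hsph1* to *Hspa4* was 0.205 ± 0.057 and 0.244 ± 0.116 at RT and 0.253 ± 0.037 and 0.255 ± 0.036 in the cold (exact p = 0.32). A difference between the responses of both HSP110 members was not detected at this spread.

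**Figure D4:**
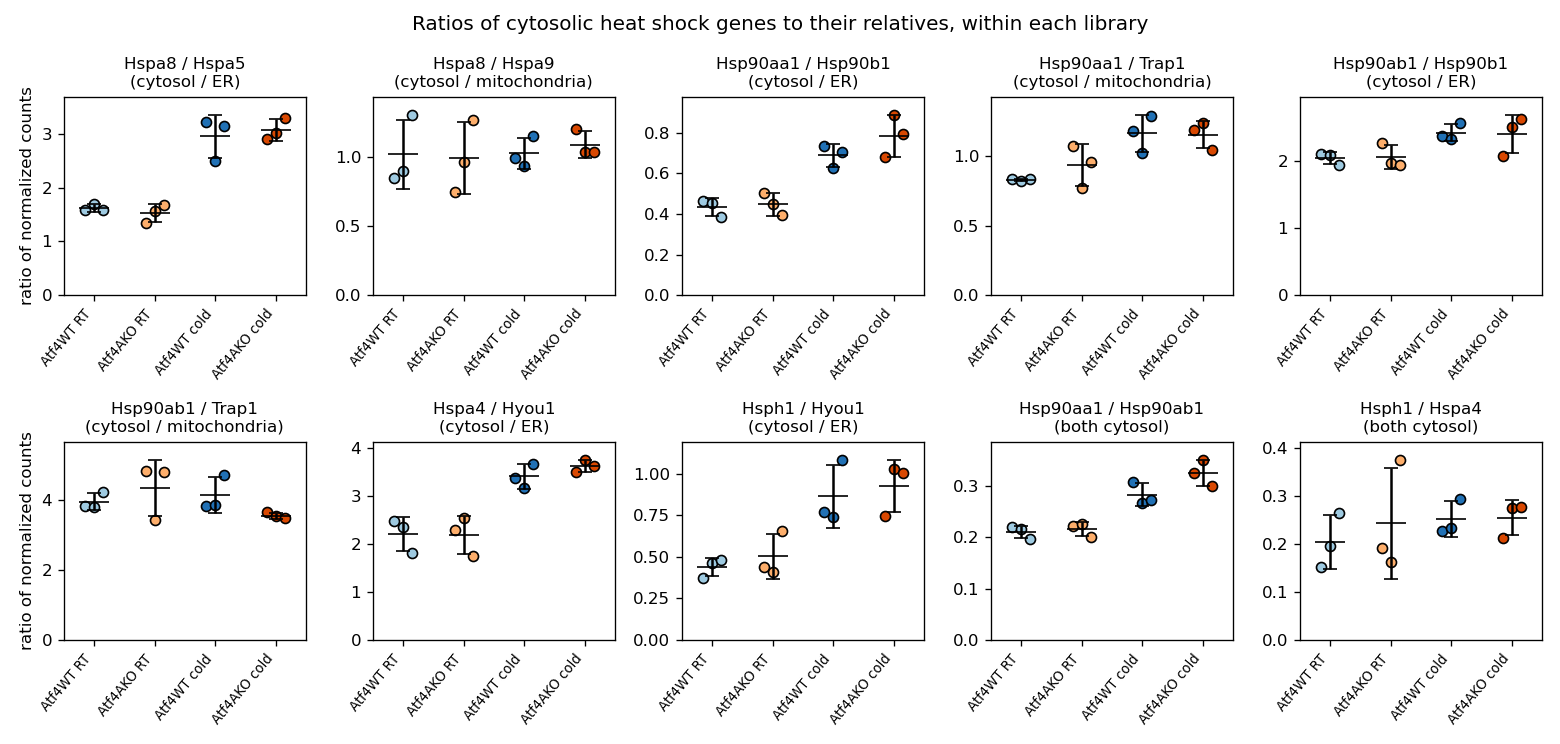
Ratios of normalized counts within each library (y axes from 0) for the 10 pairs of a cytosolic gene and its relative; points are libraries, horizontal lines are means and bars are SD (n = 3 per group). The ratio of *Hspa8* to *Hspa5* lies between 1.34 and 1.70 at RT and between 2.49 and 3.30 in the cold, whereas that of *Hspa8* to *Hspa9* overlaps between 0.749 and 1.31.

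The genes whose pattern over the 12 libraries was closest to each member were found by the root mean square difference of centred log2 values. The closest other member of *Hspa8* was *Hsph1* and the reverse, at 0.287, while *Hspa4* and *Hsp90aa1* were closest to each other at 0.145, and *Hspb1* and *Bag3* at 0.123. *Dnajb1* was closest to *Hspb1* at 0.153, and *Dnaja1* to *Dnajb1* at 0.157. *Hsp90ab1* and *Hsf1* had no near member, with *Dnaja1* at 0.205 against a spread of *Hsp90ab1* itself of 0.139, and *Bag3* at 0.225 against a spread of *Hsf1* of 0.192. The 3 non-member genes closest to *Hspa8* were *Myo19* (0.138), *Megf6* (0.148) and *Usp33* (0.159). For *Hsp90aa1* they were *Cacybp* (0.083), *Ahsa1* (0.092) and *Fdxacb1* (0.096), for *Hspa4* they were *Ccdc47* (0.065), *Psme3* (0.067) and *Slc25a15* (0.073), and for *Hsph1* they were *2700097O09Rik* (0.215), *Chordc1* (0.222) and *Tm6sf2* (0.223). For the other members they were *Ubn2*, *Taf4* and *Tal1* (*Hsf1*), *Dynll1*, *Hnrnpc* and *Rnaset2b* (*Hsp90ab1*), *Nacc1*, *Hmgxb3* and *Ecd* (*Dnajb1*), *Tmem50b*, *Trnt1* and *Gemin5* (*Dnaja1*), *Pigyl*, *Skp1a* and *Copz1* (*Hspb1*), and *Tusc2*, *Tssc4* and *Gga1* (*Bag3*), at distances between 0.059 and 0.093. These distances grow with the spread of a gene and are not compared between members.

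For *Hsp90ab1* the closest genes were *Dynll1* (0.060), *Hnrnpc* (0.065) and *Rnaset2b* (0.080), and for *Hsf1* they were *Ubn2* (0.081), *Taf4* (0.086) and *Tal1* (0.087). For *Dnajb1* they were *Nacc1* (0.059), *Hmgxb3* (0.065) and *Ecd* (0.070), and for *Dnaja1* they were *Tmem50b* (0.080), *Trnt1* (0.089) and *Gemin5* (0.093). For *Hspb1* they were *Pigyl* (0.059), *Skp1a* (0.060) and *Copz1* (0.062), and for *Bag3* they were *Tusc2* (0.061), *Tssc4* (0.067) and *Gga1* (0.072). These distances describe likeness among 13404 genes over libraries that share depth scaling and tissue makeup.

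Some libraries were the highest or lowest of their group for several members. With 3 libraries per group, each gene has a highest and a lowest library in any case. The share over all tested genes was not counted. In cold-exposed Atf4AKO mice, replicate 1 was above both other replicates for 7 members and replicate 0 was below both for 8 members. In Atf4WT mice at RT, replicate 2 was below both others for 7 members and above both for 3. It was also the library of its group with the high lymphocyte score and the high muscle marker sum (94204, against 500 and 913). In cold-exposed Atf4WT mice, replicate 2 was above both others for 6 members and below both for 3. The median shift over members of a library from the other 2 of its group was at most 0.21 on the log2 scale, and the largest shift of 1 member was 0.86, that of *Hsph1* in Atf4AKO RT replicate 2.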

How the data were processed

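Polyadenylated RNA of iWAT from 4 groups of 3 mice was analysed as 12 libraries, grouped by the labels. The deposited values are a signal made by the authors from reads filtered with SOAPnuke, mapped to mm10 with STAR, counted with featureCounts (uniquely mapped reads) and divided by DESeq2 size factors in pyDESeq2. Tool versions and the strand setting of the counting are not given in the sources used here. Dividing by the value of 1 read gave whole reads for 100% of values (tolerance 0.001 reads).

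The 10 members, the gene lists and the pairs were chosen with earlier results of these data known. Differences were tested with limma (version 3.58.1, R 4.3.3; lmFit and eBayes, trend on) after a log2 transformation with a pseudocount of 1. The fit used the 4 group means and 13404 genes, each averaging 10 or more normalized counts. Fold changes are on this scale, which understates those of low genes. P-values were adjusted by Benjamini-Hochberg over all tested genes, and a call needs an adjusted p under 0.05. Because each group has 3 libraries, p-values measure only the spread between these mice, which the study describes as independent biological replicates. The genes named are all members, *Atf4*, *Ucp1*, *Hspa1a* and *Hspa1b*, up to 3 higher and 3 lower called genes with the smallest p of each list and comparison, the relatives in the ratios, and for each member the 3 nearest genes and the nearest member. *Hsp90b1* also falls under the rule for lists.

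Alternatives were pseudocounts of 0.5 and 5, no filter, a filter at a mean of 50, rescaling to the same 75th percentile, only the groups compared, a replicate block, the lymphocyte score as a covariate, edgeR 4.0.16 and DESeq2 1.42.0 on the recovered reads, the DEG threshold of the study, and leaving out each library. The ratios were added later. Scripts were tested on simulated data. Python 3.11.15 with numpy 2.4.6 and pandas 2.3.3 did the rest.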

Additional observations from a re-analysis of the deposited data

How the results depend on the processing

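The members called in the cold in either direction numbered 4 in Atf4WT and 3 in Atf4AKO mice, all of them higher. Under the DEG threshold the count was 2 in Atf4WT mice, because *Hspa4* and *Hsp90aa1* differed by less than 1.5-fold, and under DESeq2 it was 5 in Atf4AKO mice, with *Hsph1* higher and *Hsp90ab1* lower. Leaving out 1 library gave 2 to 4 and 2 to 3 calls. Over the alternatives, 3 to 7 ER and 6 or 7 mitochondrial chaperone genes were called in the cold. *Hspa8* and *Hspa4* were called in both genotypes under each alternative except the DEG threshold, which *Hspa4* missed. No alternative called a member between genotypes or in the interaction. The labels do not say that replicate numbers pair the libraries, and correlations of same-numbered libraries lay between -0.19 and 0.39. Between the genotypes these were 0.39 and 0.31 in the cold and 0.32 and 0.37 at RT for replicates 1 and 2. For replicate 0 they were -0.15 and -0.05, and the cause was not tested. With the replicate block 4 and 3 members were called, with *Hsph1* in place of *Hsp90aa1* in Atf4AKO mice.

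Some differences changed sign, not all of them to values near 0, and the cause was not tested. With the lymphocyte score these were, for cold, *Hsf1* in Atf4WT (-0.081) and *Hspb1* in Atf4AKO (-0.044). For genotype in cold they were *Hsf1* (0.18), *Hsp90ab1* (0.078), *Hspa4* (-0.11), *Dnajb1* (-0.34), *Dnaja1* (-0.12), *Hspb1* (-0.31) and *Bag3* (-0.24). For the interaction they were *Hspa4* (-0.21), *Hsph1* (0.22) and *Dnaja1* (-0.20). The interaction of *Hspb1* kept its sign and was -0.53 with this score (adjusted p = 0.949 from limma), beside -0.16 in the main fit. With rescaling the sign changed for *Hspb1* for cold in Atf4AKO (-0.048) and *Dnajb1* for genotype in cold (-0.0070). It also changed for *Hsf1* (-0.0185) and *Hspa4* (-0.018) for the interaction. Leaving out 1 library gave ranges across 0 for cold of *Dnaja1* in Atf4WT (-0.045 to 0.16) and *Hspb1* in Atf4AKO (-0.046 to 0.086). For genotype in cold the ranges were -0.065 to 0.068 for *Hsp90ab1*, -0.046 to 0.11 for *Dnajb1* and -0.096 to 0.15 for *Bag3*, and at RT -0.034 to 0.26 for *Hspa8*, -0.014 to 0.19 for *Dnajb1* and -0.027 to 0.18 for *Dnaja1*. For the interaction they were -0.091 to 0.19 for *Hsf1*, -0.13 to 0.041 for *Hsp90aa1*, -0.12 to 0.17 for *Hspa8*, -0.060 to 0.12 for *Hspa4*, -0.34 to 0.13 for *Hsph1*, -0.15 to 0.052 for *Dnajb1*, -0.023 to 0.18 for *Dnaja1* and -0.18 to 0.064 for *Bag3*. For genotype in cold the widest interval was that of *Hsph1*, which reached 1.63-fold, and its log2 difference of 0.15 was 0.56 with the lymphocyte score and 0.046 to 0.345 when 1 library was left out.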
